A study of Mus musculus with 4 samples.

Results

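The heat shock chaperone genes described here are Hspa1a, Hspa1b, Hspa8, Hsph1, Dnajb1, Dnaja1, Hsp90aa1, Hsp90ab1, Hspd1 and Hspe1. They were chosen by gene symbol and are 10 of the 27998 genes counted in each library, and all 10 symbols were found. The question was whether a higher level of these genes in the libraries of ovalbumin-challenged mice was shared by all classes of nasal leukocytes. The data are single-cell RNA-seq of CD45+ nasal mucosa cells of C57BL/6 mice aged 8 weeks, with a single library per group. The groups were Vehicle, Vehicle-OVA, Ribavirin, Ribavirin-OVA, and wherever 4 values are given in a row below they are in this order. OVA is ovalbumin, which the study used for sensitisation by injection with alum and then for challenge through the nose to model allergic rhinitis. Ribavirin is an antiviral nucleoside analogue that the series describes as a nasal spray against resident viruses, and Vehicle is its control. The labels give no dose or schedule, do not say how many mice were pooled into a library, and name magnetic bead isolation where the series text names flow sorting. All 4 libraries share digestion of the tissue with hyaluronidase, collagenase I and DNase I, a step that can itself induce heat shock genes. With 1 library per group there was no replicate and no test between groups, so that every interval below covers counting error only.

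Heat shock proteins bind unfolded proteins and help them to fold. The HSP70 proteins work in an ATP-driven cycle in which HSP40 proteins such as Dnajb1 and Dnaja1 deliver the substrate and HSP110 proteins such as Hsph1 exchange the nucleotide, and HSP90 proteins take over partly folded clients such as kinases and steroid receptors. Hspd1 and Hspe1 form the folding chamber of the mitochondrial matrix. Heat, oxidants and other protein-damaging stress release the transcription factor HSF1, which binds inverted repeats of GAA (heat shock elements) in the promoters of these genes. Hspa1a, Hspa1b, Hsph1, Dnajb1 and Hsp90aa1 are known as its strongly inducible targets, whereas Hspa8 and Hsp90ab1 are the abundant constitutive forms.

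The promoters of the members that differed most between libraries are shown first, because Hspa1a and Hspa1b are near copies and Hspd1 and Hspe1 share a promoter. Each line gives the 130 bases before a transcription start as in RefSeq (build GRCm38.p6), 5′ to 3′ on the strand of the gene. Capitals mark matches to GAANNTTC or TTCNNGAA, the minimal pairs of heat shock element units. The Hspa1a stretch is chr17:34972157-34972286 on the minus strand, the Hspa1b stretch chr17:34959239-34959368 on the minus strand, the Hspe1 stretch chr1:55088018-55088147 on the plus strand and the Hsph1 stretch chr5:149636337-149636466 on the minus strand.
Hspa1a: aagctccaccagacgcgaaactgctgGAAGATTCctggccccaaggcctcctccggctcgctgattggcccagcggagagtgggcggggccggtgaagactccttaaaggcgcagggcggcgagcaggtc
Hspa1b: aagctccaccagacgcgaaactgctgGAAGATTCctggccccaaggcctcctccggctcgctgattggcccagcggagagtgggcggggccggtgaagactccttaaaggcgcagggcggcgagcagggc
Hspe1: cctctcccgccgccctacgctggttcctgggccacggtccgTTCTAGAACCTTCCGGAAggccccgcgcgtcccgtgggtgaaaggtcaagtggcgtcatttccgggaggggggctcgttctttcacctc
Hsph1: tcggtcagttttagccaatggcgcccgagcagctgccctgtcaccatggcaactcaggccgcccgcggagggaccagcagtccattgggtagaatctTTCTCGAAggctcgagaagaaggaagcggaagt
The Hspa1a and Hspa1b stretches were identical at 129 of 130 bases, and both held a GAANNTTC match 104 bases before the start. The Hspe1 stretch held 3 overlapping matches in a run of 18 bases, which also lies in a promoter window of Hspd1 on the other strand. Windows of 300 bases around starts were on hand for 7 of the 10 members (12 windows), not for Hspa8, Hsp90aa1 and Hsp90ab1. GAANNTTC was found in 7 of these windows, from 6 genes, against 7.86% of all 32851 mouse windows, and TTCNNGAA in 4 windows, from 3 genes, against 8.52%. Both motifs read the same on either strand, and they overlap in the Hspe1 run. Dnajb1 held neither in its 2 windows. A match is a description of the letters and not a measured binding site.

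Hspa1a (chr17:34969190-34972156) and Hspa1b (chr17:34956436-34959238) are genes of 1 exon each that lie 9951 bases apart on the minus strand. Their transcripts were 92.5% identical over 2735 aligned bases and 62.7% identical over the 421 bases aligned within the last 500. The libraries read the 3′ end, so that most reads can tell the genes apart, but reads from the shared part could be split or lost and the separate levels are uncertain to that extent. Hspd1 (chr1:55077835-55088243) and Hspe1 (chr1:55088132-55091307) lie head to head and overlap by 112 bases at their 5′ ends, away from the sequenced 3′ ends. Dnaja1 (chr4:40722150-40737149) is overlapped on the opposite strand by Smu1.

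The 4 libraries held 10311 to 28277 cell barcodes and 91742940 to 171873110 UMIs (molecules counted once by their identifier), with median UMIs per barcode between 3389 in Vehicle-OVA and 4952 in Ribavirin. The lowest barcode total was 1782 UMIs in Ribavirin against 500 to 501 in the others. Pairs of libraries shared 57 to 174 barcode sequences. After filters, 23097, 16320, 18667 and 8514 cells were kept. Clustering was run without the chaperone genes among its variable genes. It gave 44 clusters, and 8 rebuilt classes had at least 100 cells in every library: neutrophil-like, macrophage-like, monocyte-like, cDC-like (conventional dendritic), pDC-like (plasmacytoid dendritic), T cell-like, B cell-like and epithelial-like, the last against the CD45+ label. Clusters left unnamed, such as cluster 1 (6574 cells) and cluster 4 (4873 cells), lay outside these classes. Levels are given as CPM, the UMIs of a gene per 1000000 UMIs of the class in that library.

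The rise in the OVA libraries was not shared by all members and was not alike in all classes. Under vehicle, Hspa1b was higher with OVA in all 8 classes, with intervals of the ratio above 1, and Hspa1a in 7 of 8. Hsph1 was higher in 8 of 8 classes (interval above 1 in 6), whereas Hspe1 was lower in 8 of 8, and Dnaja1 and Hsp90ab1 in 7 of 8. In each class the median log2 ratio over all genes also moved, from -0.35 in neutrophil-like to 0.45 in B cell-like cells under vehicle and from 0.23 to 0.46 under ribavirin. Ratios were therefore read relative to that class median (centred log2), and a member was called at a centred difference of 2-fold in a class where it had at least 50 UMIs over the 4 libraries. Of the 80 pairs of class and member, 78 had that many, and Hspa1a and Hspa1b in B cell-like cells did not. With OVA under vehicle 13 of the 78 pairs were called higher, which is 16.7% against 7.8% of all 82201 pairs of class and gene, and 4 were called lower, which is 5.13% against 8.83%. The 13 comprised Hspa1b in 6 classes, Hspa1a in 4 and Hsph1 in 3. With OVA under ribavirin 4 pairs were called higher (5.13% against 3.23%) and 3 lower (3.85% against 6.54%). Without centring these counts became 15 higher (19.2% against 12.3% of all pairs) and 3 lower (3.85% against 7.63%) under vehicle, and 8 higher (10.3% against 9.97%) and 1 lower (1.28% against 2.77%) under ribavirin. Under ribavirin the share of higher calls was thus near that of all genes. The median of the members lay above the median of all genes in 2 of 8 classes under vehicle (neutrophil-like 0.11, cDC-like 0.03) and in 0 of 8 under ribavirin, and without centring in 6 and 5. With Hspa1a and Hspa1b set aside, the median of the other 8 members was below the median of all genes in every class in both pairs, between -0.55 in B cell-like and -0.08 in neutrophil-like cells under vehicle.

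**Figure D1:**
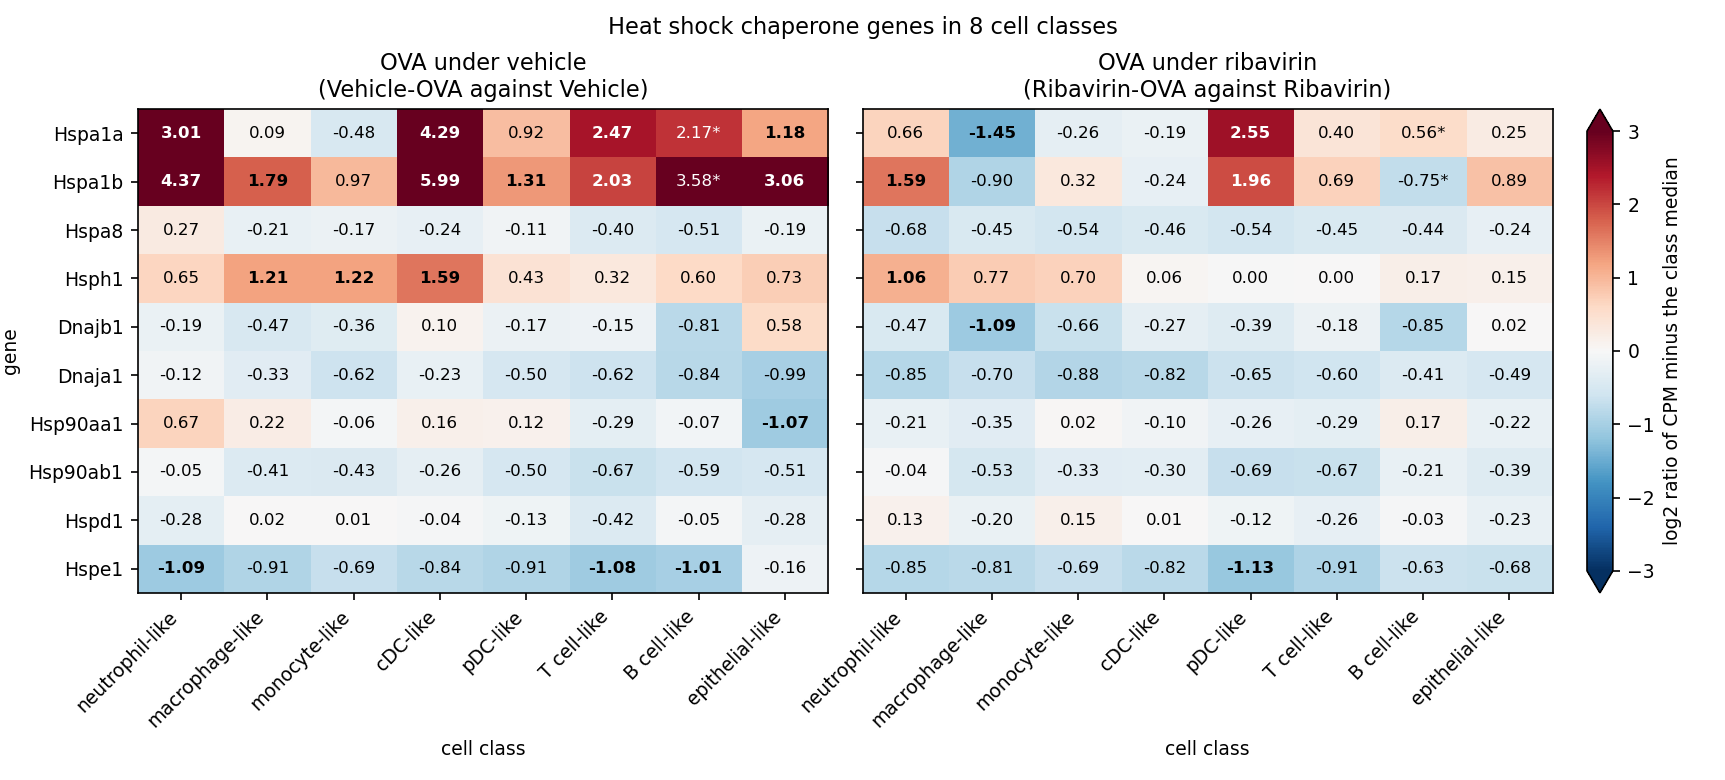
Centred log2 ratio of CPM (colour and printed value, pseudocount 1 CPM, 0 being the median of all genes in the class) for the 10 members in 8 classes, for Vehicle-OVA against Vehicle and Ribavirin-OVA against Ribavirin. The values past 2-fold under vehicle are positive for Hspa1a, Hspa1b and Hsph1 only, up to 5.99 for Hspa1b in cDC-like cells, while Hsp90aa1 reaches 0.67 and Dnajb1 0.58 in single classes. Hspe1, Dnaja1 and Hsp90ab1 are negative in all 8 classes of both pairs.

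Hspa1a and Hspa1b encode the stress-inducible HSP70. Over all kept cells Hspa1a was at 13.6 CPM (95% interval 12.9 to 14.2), 118 CPM (115 to 120), 21.03 CPM (20.3 to 21.8) and 26.3 CPM (25.1 to 27.4) in the 4 libraries. Hspa1b was at 7.13, 159, 13.3 and 37.1 CPM in the same order. Vehicle-OVA stood above the other 3 libraries for both genes, with a ratio to Vehicle of 8.67 (8.25 to 9.12) for Hspa1a and 22.3 (20.9 to 23.8) for Hspa1b. Ribavirin-OVA against Ribavirin gave 1.25 (1.18 to 1.32) for Hspa1a, which is at the median of all genes after centring (-0.02), and 2.79 (2.63 to 2.96) for Hspa1b. An unnamed cluster, cluster 5, held most of these UMIs in Vehicle-OVA. Without its cells the ratio under vehicle was 4.17 (3.92 to 4.43) for Hspa1a and 14.3 (13.02 to 15.6) for Hspa1b. Under ribavirin it was 0.934 (0.876 to 0.994) for Hspa1a, so that the direction turned, and 1.92 (1.80 to 2.05) for Hspa1b, which was then no longer called. At least 10 UMIs of the pair of genes were seen in 0.173% of kept cells in Vehicle, 2.53% in Vehicle-OVA, 0.461% in Ribavirin and 1.30% in Ribavirin-OVA.

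In neutrophil-like cells Hspa1a was at 8.59, 59.8, 15.1 and 34.1 CPM in the 4 libraries, and Hspa1b at 4.58, 89.6, 13.1 and 57.7. Both OVA libraries were above both libraries without OVA. The ratio under vehicle was 6.96 (5.51 to 8.90) for Hspa1a and 19.5 (14.3 to 27.4) for Hspa1b, and under ribavirin 2.25 (1.83 to 2.78) and 4.40 (3.63 to 5.35). The class was made of different clusters in different libraries (mostly cluster 3 in Vehicle, clusters 9 and 12 in Vehicle-OVA and cluster 10 in Ribavirin). Within cluster 3 alone, Hspa1a was 3.41-fold (2.45 to 4.78) and Hspa1b 14.6-fold (9.91 to 22.03) higher with OVA under vehicle, and 2.39-fold (1.47 to 3.88) and 2.62-fold (1.502 to 4.56) higher under ribavirin. Of the UMIs of the pair in cluster 3, a single cell held 38 of 102, 87 of 236, 14 of 66 and 30 of 65 in the 4 libraries, so these ratios rest on few cells. Without cluster 29 the class ratio under ribavirin was 1.79 (1.43 to 2.24) for Hspa1a and 3.32 (2.70 to 4.08) for Hspa1b, which was still called.

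Macrophage-like cells had another pattern. Hspa1a was at 24.8, 30.4, 58.5 and 24.6 CPM, so that the Ribavirin library without OVA was the highest. The OVA ratio was 1.22 (1.08 to 1.39) under vehicle and 0.42 (0.373 to 0.472) under ribavirin. Hspa1b was at 5.87, 26.0, 21.4 and 13.03 CPM, 4.43-fold (3.58 to 5.53) higher with OVA under vehicle and 0.609 times the level (0.511 to 0.724) under ribavirin. Cluster 7 held most of the class without OVA and cluster 6 most of it with OVA. Within cluster 7 the OVA ratios of Hspa1a were 2.69 (2.12 to 3.397) under vehicle and 0.918 (0.731 to 1.14) under ribavirin, and those of Hspa1b 2.83 (1.67 to 4.57) and 1.37 (0.994 to 1.86). The OVA side of these ratios rests on few cells. A single cell held 31 of the 109 UMIs of the pair in cluster 7 of Vehicle-OVA and 34 of 139 in Ribavirin-OVA.

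Among the less common myeloid classes, monocyte-like cells had the least difference, with Hspa1a at 14.2, 12.4, 24.7 and 25.9 CPM and Hspa1b at 7.32, 19.0, 12.6 and 20.3. Neither gene was called in either OVA pair there. In cDC-like cells Hspa1a was at 9.26, 260.5, 21.1 and 24.8 CPM and Hspa1b at 2.08, 253, 13.5 and 15.4, which made this the largest difference of any class under vehicle. It rested on few cells, since 1 of the 296 cDC-like cells of Vehicle-OVA held 1448 of the 1726 UMIs of the pair (83.9%) and 3 cells held 94.4%. Within cluster 11, which held most cDC-like cells and not that cell, the OVA ratio under vehicle was 1.83 (1.29 to 2.57) for Hspa1a and 8.87 (5.10 to 16.0) for Hspa1b. In pDC-like cells Hspa1a was at 3.85, 10.4, 0.66 and 10.7 CPM, and a single cell held 45 of 48, 26 of 46, 1 of 5 and 29 of 40 UMIs of the pair in the 4 libraries. The ratios in pDC-like cells rest on single cells in both pairs, and with each cell thinned to 1000 UMIs Hspa1b there was lower with OVA.

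Lymphocytes had low levels without OVA. In T cell-like cells Hspa1a was at 1.38, 16.3, 2.49 and 4.96 CPM and Hspa1b at 1.93, 14.7, 3.91 and 9.28. Both OVA libraries were above both others. The OVA ratio of Hspa1a was 11.8 (8.31 to 17.001) under vehicle and 1.99 (1.36 to 2.92) under ribavirin, and that of Hspa1b 7.64 (5.57 to 10.6) and 2.37 (1.78 to 3.16). Cluster 2 was the main T cell-like cluster without OVA and cluster 17 with OVA. Within cluster 2 the ratios under vehicle were 6.72 for Hspa1a (2.01 to 17.9) and 5.47 for Hspa1b (2.08 to 12.3), and within cluster 8, a further T cell-like cluster, 6.96 (3.28 to 16.1) and 10.7 (4.59 to 28.7). In B cell-like cells Hspa1b had 0, 16, 10 and 5 UMIs in the 4 libraries and Hspa1a 1, 11, 1 and 2. Against the floor of 3 counts, Hspa1b in B cell-like cells of Vehicle-OVA was at least 5.79-fold higher than in Vehicle.

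In epithelial-like cells Hspa1b was at 21.3, 152, 35.1 and 81.8 CPM, and Hspa1a at 19.3, 37.1, 23.7 and 35.4. Both OVA libraries were above both libraries without OVA for both genes. The Hspa1b ratio was 7.17 (3.98 to 14.4) under vehicle and 2.33 (2.08 to 2.62) under ribavirin. The cells of Vehicle were far shallower, with median UMIs per cell of 4617, 26252, 18590 and 30483 in the 4 libraries. After each cell was thinned to 1000 UMIs, the share with a UMI of the pair was 6.52%, 21.6%, 6.79% and 12.8%, again highest in the OVA libraries. This class had only 103 to 486 cells a library, and its clusters differed between libraries (cluster 34 in Vehicle, cluster 31 in the OVA libraries).

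Most of the Hspa1a and Hspa1b UMIs of Vehicle-OVA came from outside these classes. Cluster 5 held 4871 cells, of which 192, 4097, 171 and 411 came from the 4 libraries. It was left unnamed, because only 2 markers of its nearest class (neutrophil) were detected under the naming rule, which needed 3. Some neutrophil genes were nonetheless present in many of its Vehicle-OVA cells, with a UMI of S100a9 in 97.4% of them and of S100a8 in 93.5%. Csf3r was found in 77.8%, Hdc in 66.5% and Retnlg in 58.4%, but Cxcr2 in 29.2%, Mmp9 in 16.5% and Ly6g in 1.95%. Of the neutrophil-like cells of that library, 81.0% had a UMI of Cxcr2 and 65.9% of Mmp9. S100a9 was also found in 90.7% of T cell-like and 94.8% of macrophage-like cells of Vehicle-OVA, so its presence separates cell types poorly. Cluster 5 of that library had a UMI of Cd3e, a T cell gene, in 0.537% of its cells. Its leading genes over all other cells were Hspa1b, Mreg, Hspa1a, Fnip2 and Ero1l, with Hmox1 and Nos2 among the leading 10. It held 28.2%, 66.9%, 4.25% and 33.0% of the Hspa1a and Hspa1b UMIs of the 4 libraries, against 0.324%, 10.9%, 0.344% and 1.27% of all UMIs. Within cluster 5 Hspa1a was at 850.0, 708, 142 and 573 CPM and Hspa1b at 955, 984, 283 and 1077. The level in the cells of cluster 5 was thus not higher with OVA under vehicle, with a ratio of 0.833 (0.7497 to 0.928) for Hspa1a and 1.03 (0.933 to 1.14) for Hspa1b. Under ribavirin it was 4.05-fold and 3.81-fold higher, where the Ribavirin library contributed 68 and 136 UMIs. Those 204 UMIs lay in 16 of 171 cells, 60 of them in a single cell. Ribavirin also had no barcode under 1782 UMIs, while the median cluster 5 cell had 2099 in Vehicle-OVA and 2084 in Ribavirin-OVA. Hsp90aa1 was at 2550.0, 1952, 1547 and 1788 CPM in cluster 5, above its level in each of the 8 classes (269.6 to 956 CPM). Only 21.4% of the cluster 5 cells of Vehicle-OVA had a UMI of the pair, and the 7.13% with at least 10 UMIs (292 cells) held 91.2% of them. With cluster 5 added to the neutrophil-like class, that class was at 48.0, 260.2, 19.7 and 121 CPM of Hspa1a and at 49.1, 366, 22.8 and 222 CPM of Hspa1b. Its OVA ratios were then 5.42 (4.92 to 5.97) under vehicle and 6.15 (5.34 to 7.11) under ribavirin for Hspa1a, and 7.45 (6.78 to 8.20) and 9.74 (8.596 to 11.1) for Hspa1b.

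**Figure D2:**
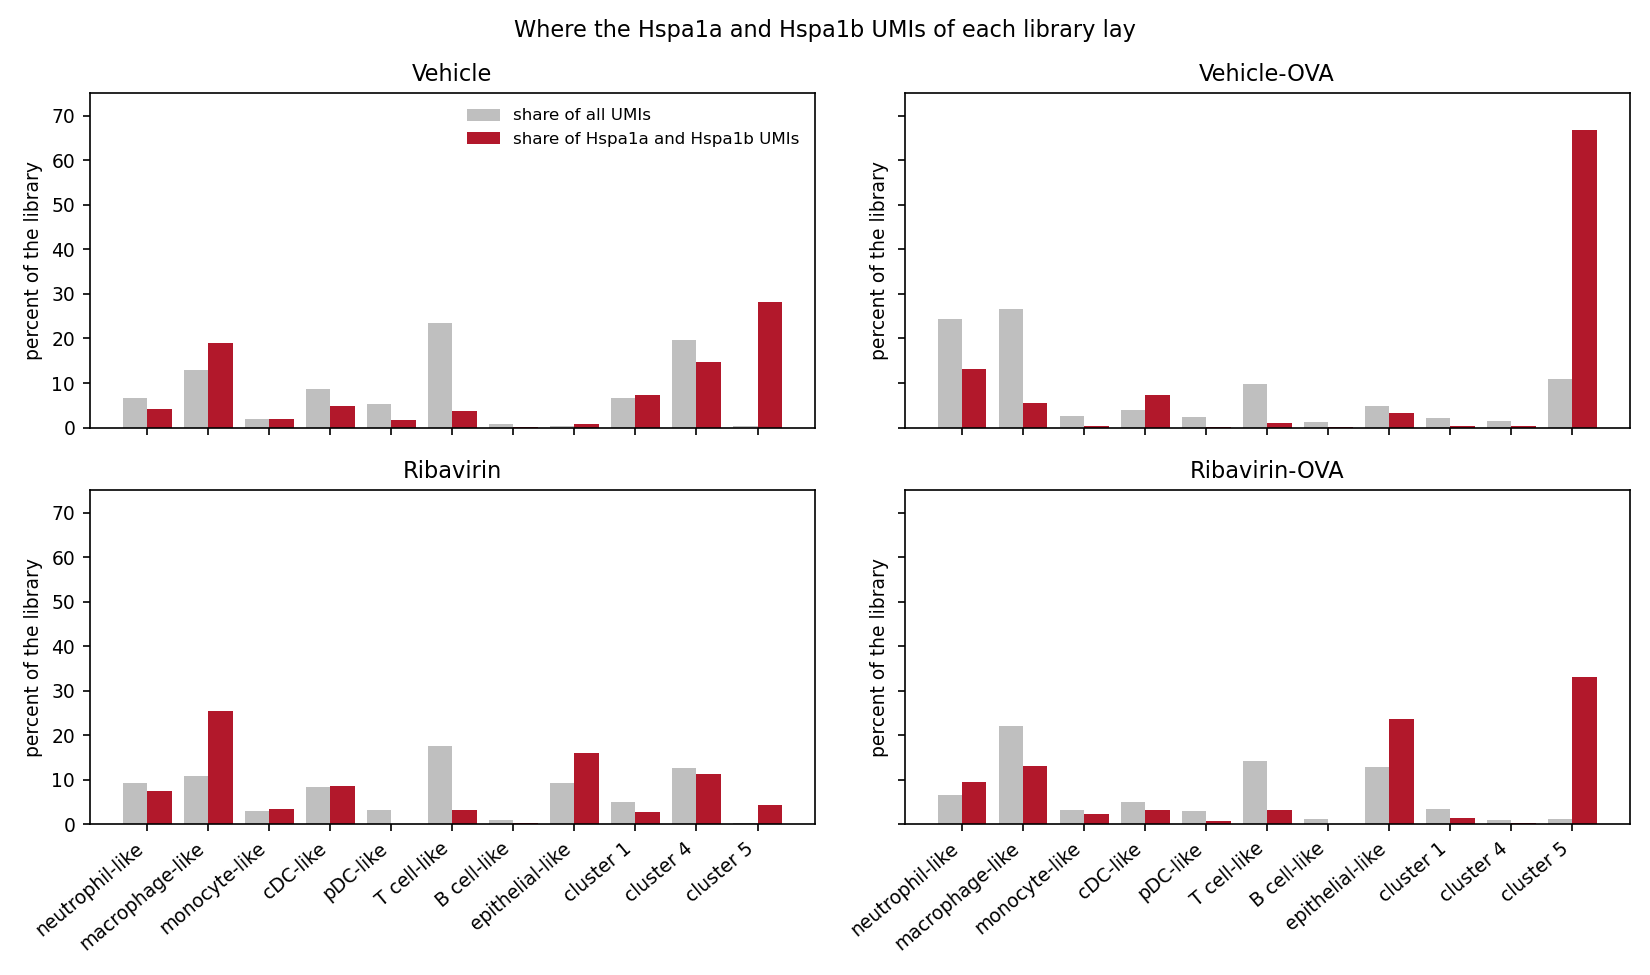
Share of each library's Hspa1a and Hspa1b UMIs (percent) by class or cluster, beside the share of all UMIs from the same cells. Cluster 5 gives 66.9% of the UMIs of the pair in Vehicle-OVA from 10.9% of all UMIs of that library.

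Comparisons inside single clusters avoid the change in cluster mix. In 11 clusters with at least 100 cells in each library, Hspa1b had an OVA ratio with its interval above 1 in 10 under vehicle and in 7 under ribavirin, and Hspa1a in 8 and in 4. The calls of Hspa1a under vehicle were 5 higher of the 10 clusters with enough UMIs, and those of Hspa1b 6 of 9, against 4.83% of all pairs of cluster and gene. Under ribavirin 3 and 3 were called higher, against 3.97%. Cluster 5 itself was not among the higher clusters under vehicle, with an interval below 1 for Hspa1a. Unnamed cluster 1, the largest with 6574 cells, had no member called in any pair of libraries. Its Hspa1a was at 14.5, 17.1, 12.6 and 10.5 CPM. Unnamed cluster 4 had 90 cells in Ribavirin-OVA and was not among the 11. There Hspa1a and Hspa1b were called higher with OVA under vehicle, and Hspa1a lower under ribavirin.

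Low counts of a gene in many cells can also be RNA of other cells that is free in the droplets, for which transcripts of another cell type were examined. S100a8 and S100a9, which T cells are not known to express, together reached 381, 1227, 552 and 234 CPM in T cell-like cells of the 4 libraries. After each cell was thinned to 1000 UMIs, 26.2%, 61.0%, 38.9% and 23.2% of T cell-like cells had a UMI of S100a8 or S100a9, and 0.303%, 2.57%, 0.619% and 1.55% had one of Hspa1a or Hspa1b (unthinned 1.37%, 9.48%, 3.00% and 5.57%). The whole neutrophil marker list summed to 417, 1435, 614 and 316 CPM in these cells, with none of its genes at 0. Both measures were highest in Vehicle-OVA, whereas Ribavirin-OVA was the lowest for the neutrophil transcripts and the second highest for the chaperone pair. In T cell-like cells Hmox1, a heme oxygenase gene prominent in cluster 5, was at 3.63, 35.8, 3.75 and 7.48 CPM. The number of Hmox1 UMIs per UMI of the pair in Vehicle-OVA was 0.96 in cluster 5, 1.15 in T cell-like, 0.89 in B cell-like, 1.76 in plasma cell-like, 2.00 in pDC-like, 0.18 in epithelial-like, 0.10 in cDC-like, 1.67 in neutrophil-like, 4.54 in monocyte-like and 6.71 in macrophage-like cells. In Ribavirin-OVA it was 0.94 in cluster 5, 0.53 in T cell-like and 1.43 in B cell-like cells, the last from 7 UMIs of the pair. In NK-like (natural killer) cells the same ratio was 1.00 in both OVA libraries, from 7 and 4 UMIs of the pair. The part of free RNA in the lymphocyte levels was not tested. Thinned shares of cells with a UMI of the pair were 0.588%, 5.07%, 1.52% and 3.19% in neutrophil-like and 2.45%, 4.55%, 5.58% and 3.42% in macrophage-like cells.

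**Figure D3:**
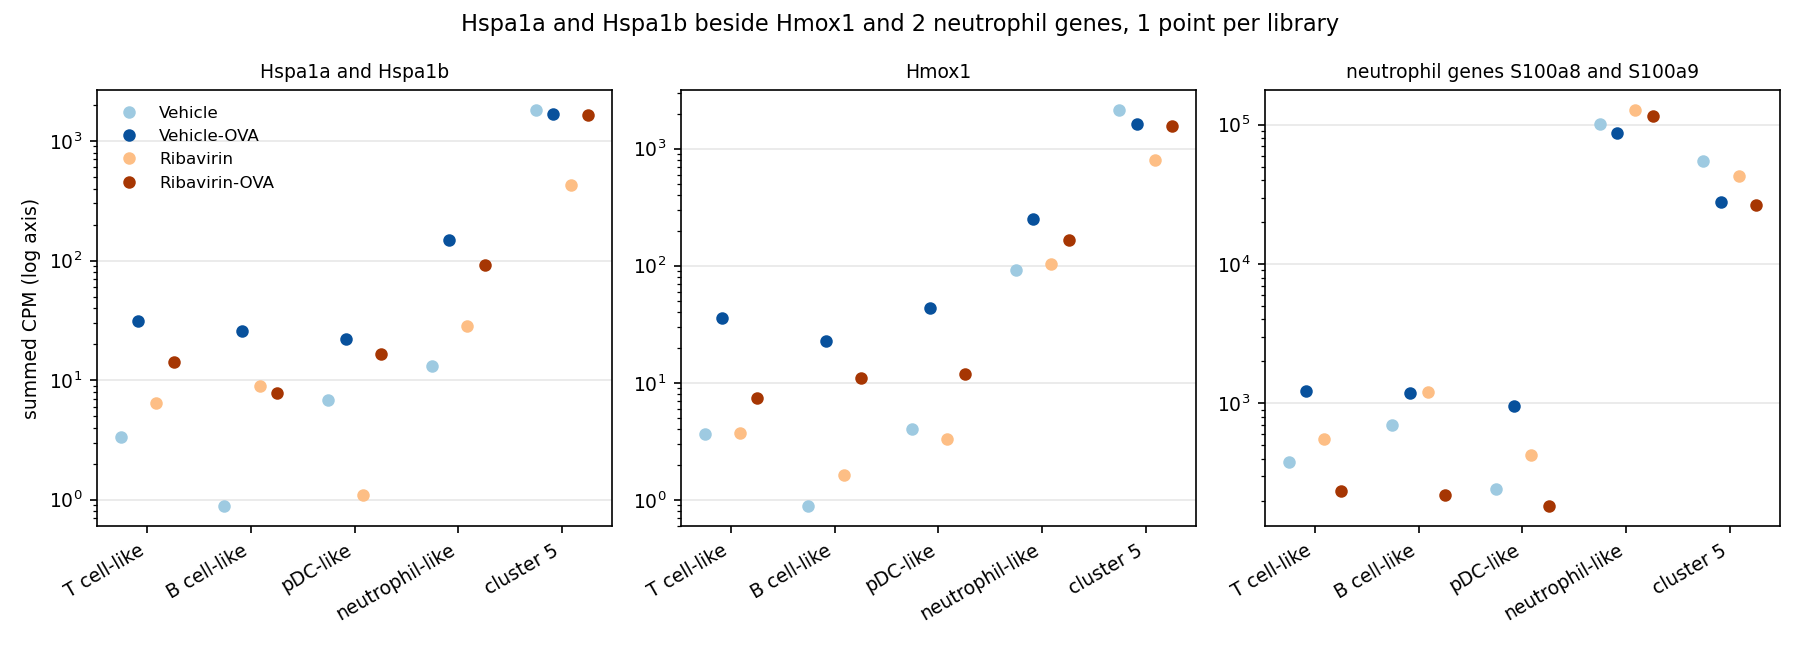
CPM (log axis) of the neutrophil genes S100a8 and S100a9, of Hmox1 and of Hspa1a with Hspa1b in classes and in cluster 5 of each library. In T cell-like cells the sums of S100a8 and S100a9 (1227 CPM), of Hmox1 (35.8 CPM) and of the chaperone pair (31.0 CPM) are all highest in Vehicle-OVA. The sum of Obp1a and Obp1b, not drawn, is lowest there (27.7 CPM).

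Hsph1, the HSP110 that exchanges the nucleotide of HSP70, lay above the class median in all 8 classes under vehicle, by 0.32 to 1.59 on the centred log2 scale. In macrophage-like cells it was at 15.4, 42.3, 17.01 and 34.98 CPM, so that both OVA libraries were above both others, with ratios of 2.74 (2.39 to 3.15) under vehicle and 2.06 (1.78 to 2.39) under ribavirin. In cDC-like cells it was at 15.4, 63.4, 18.9 and 26.6 CPM, and the ratio of 4.11 (3.36 to 5.05) under vehicle became 2.49 (1.89 to 3.26) within cluster 11. In monocyte-like cells the levels were 10.98, 33.1, 18.4 and 38.7 CPM and the ratio 3.02 (1.92 to 4.87). Neutrophil-like cells had the lowest level of the 8 classes in every library (3.90, 5.03, 1.86 and 7.22 CPM) and were called with OVA under ribavirin only, at 3.87-fold (2.26 to 6.77) from 24 and 37 UMIs. Of the 37, 22 came from 3 cells of cluster 29, and without that cluster the ratio was 1.61 (0.786 to 3.20) and no longer called. T cell-like cells had the highest level in every library (38.7, 64.0, 46.6 and 60.9 CPM) and a ratio of 1.66 (1.49 to 1.83) under vehicle. Within the 11 clusters Hsph1 had an interval above 1 in 7 under vehicle and in 4 under ribavirin.

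Hspa8, the constitutive HSP70, was not called in any class or pair. In macrophage-like cells it was at 1407, 1384, 1639 and 1401 CPM, and in T cell-like cells at 1081, 1075, 1205 and 1145. The ratios with OVA lay between 0.721 in epithelial-like and 1.16 in pDC-like cells under vehicle, and between 0.830 and 1.05 under ribavirin, where 8 of 8 classes were below the median of all genes. The lowest class in every library was neutrophil-like, at 403, 382, 481 and 412 CPM, and the highest monocyte-like or cDC-like.

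The HSP40 members did not follow Hspa1a and Hspa1b. Dnajb1, the inducible HSP40, had an interval above 1 with OVA in 2 classes and below 1 in 2 under vehicle, and was called nowhere. It was lower in neutrophil-like cells (60.1 CPM in Vehicle, 41.1 in Vehicle-OVA, ratio 0.683, 0.612 to 0.763) and higher in cDC-like cells (34.3 and 48.2 CPM, ratio 1.41, 1.16 to 1.69). In macrophage-like cells it was at 52.8, 43.2, 86.8 and 47.3 CPM, again highest in Ribavirin, and was called lower with OVA under ribavirin (0.545, 0.499 to 0.595). Dnaja1, a cytosolic HSP40 present in unstressed cells, was below the class median in 8 of 8 classes of both pairs. In T cell-like cells its levels were 412, 351, 414 and 354 CPM, with both OVA libraries lower, and in neutrophil-like cells 292, 211, 317 and 242 CPM. No Dnaja1 pair reached the 2-fold call.

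The HSP90 genes differed from each other. Hsp90aa1, the inducible form, was higher with OVA under vehicle in 7 of 8 classes with intervals above 1, at ratios of 1.07 to 1.45, but after centring lay between -0.29 and 0.67 in those classes and was not called higher in any. In macrophage-like cells it was at 300.3, 398, 336 and 308 CPM, and in cDC-like cells at 337, 489, 375 and 467. Epithelial-like cells went the other way, at 956, 375.0, 330.4 and 351 CPM, where Vehicle alone was high and the call was lower with OVA under vehicle and lower with ribavirin without OVA. This rests on the 103 epithelial-like cells of Vehicle. Over all cells Hsp90aa1 was at 355, 587, 348 and 427 CPM, and cluster 5 gave 36.4% of its UMIs in Vehicle-OVA. Hsp90ab1, the constitutive form, had levels of 1386, 1144, 1419 and 1154 CPM in T cell-like cells, and of 992, 852, 1012 and 819.5 CPM in macrophage-like cells, lower in both OVA libraries. It was lowest in neutrophil-like cells in every library (122, 92.8, 140.1 and 188 CPM), where the highest library was Ribavirin-OVA.

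The mitochondrial chaperonin genes differed although they share a promoter. Hspe1, the lid of the chaperonin, was lower with OVA in 8 of 8 classes in both pairs, with every interval below 1. In neutrophil-like cells it was at 27.8, 9.63, 23.5 and 17.8 CPM, a ratio of 0.346 (0.285 to 0.419) under vehicle and 0.754 (0.590 to 0.956) under ribavirin. In T cell-like cells it was at 317, 197, 298 and 205 CPM, with ratios of 0.6204 (0.589 to 0.654) and 0.687 (0.655 to 0.721), and both OVA libraries were below both others. In macrophage-like cells the levels were 291, 176, 276 and 184 CPM. Hspe1 was called lower in neutrophil-like, T cell-like and B cell-like cells under vehicle and in pDC-like cells under ribavirin. Within the 11 clusters its interval was below 1 in 11 under vehicle and in 9 under ribavirin. Hspd1, its barrel, was near the class median in both pairs, from -0.42 to 0.02 under vehicle and from -0.26 to 0.15 under ribavirin. Its levels were 94.6, 109.7, 93.9 and 95.5 CPM in macrophage-like cells, and 142, 139.9, 134 and 146 CPM in T cell-like cells.

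**Figure D4:**
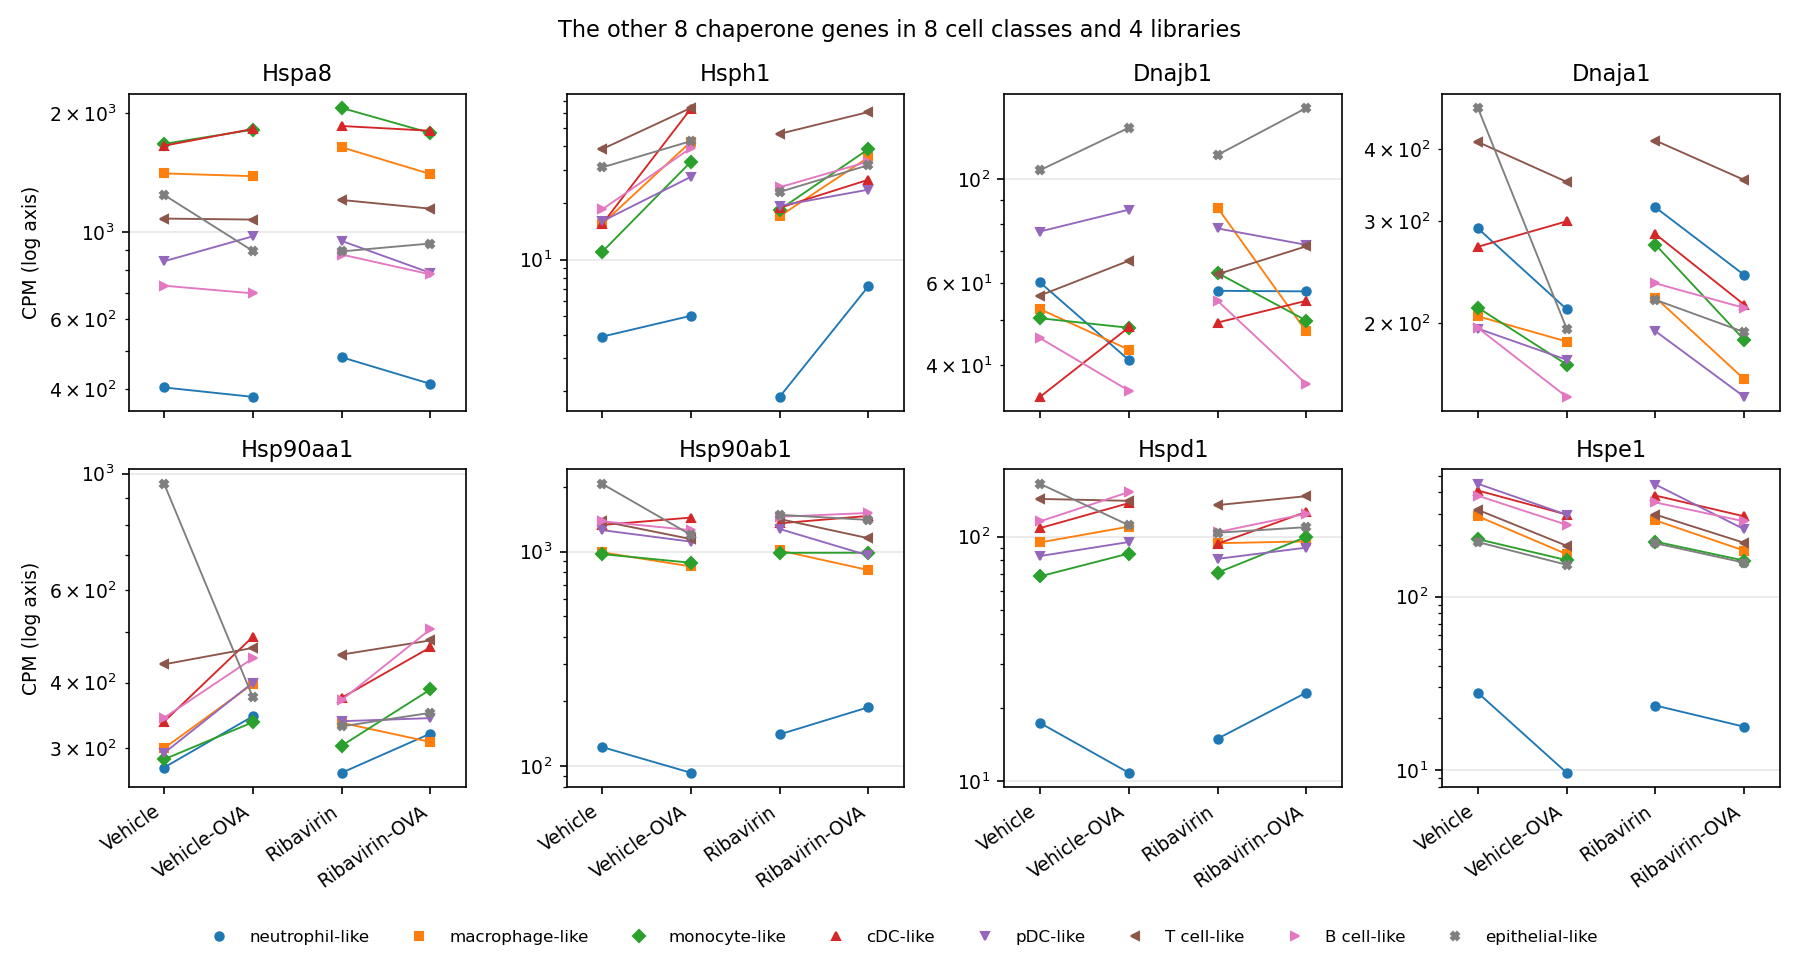
CPM (log axis) of the 8 members other than Hspa1a and Hspa1b in each class and library, as points without intervals. Lines join each library without OVA to its OVA library. Hsph1 is higher and Hspe1 lower in both OVA libraries in most classes, for instance 42.3 against 15.4 CPM and 176 against 291 CPM in macrophage-like cells of Vehicle-OVA and Vehicle, while Hspa8 and Hspd1 differ little.

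Ribavirin against Vehicle, without OVA, asked for an effect of the drug alone. The calls were 6 higher and 3 lower of 78, which is 7.69% and 3.85% against 4.11% and 2.18% of all pairs of class and gene. Without centring they were 5 higher and 4 lower (6.41% and 5.13% against 3.21% and 4.49%). They were Hspa1b higher in neutrophil-like, Hspa1a and Hspa1b higher in macrophage-like and cDC-like, both lower in pDC-like, and Hspa1b higher and Hsp90aa1 lower in epithelial-like cells. Those in pDC-like cells rest on the single cell with 45 of 48 UMIs of the pair in Vehicle, and in cDC-like cells of Ribavirin 1 cell held 156 of 409. The epithelial-like calls compare different cluster mixes, since cluster 34 held 84 of 103 cells in Vehicle and 91 of 486 in Ribavirin. In macrophage-like cells the ratios were 2.36 (2.10 to 2.66) for Hspa1a and 3.64 (2.90 to 4.61) for Hspa1b. Dnajb1 in the same cells had a ratio of 1.64 (1.51 to 1.79). The median of the members was above that of all genes in 7 of 8 classes. Ribavirin-OVA against Vehicle-OVA gave 0 higher and 6 lower calls (0% and 7.69% against 2.6% and 3.03% of all pairs), and without centring 3 higher and 4 lower (3.85% and 5.13% against 5.26% and 2.25%). The lower calls were Hspa1a and Hspa1b in neutrophil-like and cDC-like cells, Hsph1 in cDC-like cells and Hspa1a in T cell-like cells, with a ratio of 0.645 (0.568 to 0.729) for Hspa1b in neutrophil-like cells. The neutrophil-like calls compare different cluster mixes, since cluster 9 held 2926 cells in Vehicle-OVA and 89 in Ribavirin-OVA. Hspa1a in these 2 libraries was at 94.2 and 101 CPM in cluster 9 and at 33.3 and 29.3 in cluster 3. In cluster 12 it was at 18.8 and 6.95 CPM, the latter from 6 UMIs. The cDC-like values of Vehicle-OVA include the cell with 1448 UMIs. Within cluster 11, which lacks that cell, Hspa1a was at 20.7 CPM in Vehicle-OVA and 29.1 in Ribavirin-OVA (ratio 1.40, 0.979 to 2.02), Hspa1b at 18.00 and 17.1 (0.949, 0.619 to 1.46) and Hsph1 at 36.4 and 25.8 (0.709, 0.513 to 0.976), none of them called. The libraries of the 4 pairs overlap, so that a high value in Vehicle-OVA enters both the OVA and the ribavirin comparison.

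Gene lists related to the members were counted in the same 8 classes, and their medians are on the centred scale, on which all genes have 0. The shares called are to be read against 7.8% higher and 8.83% lower of all pairs of class and gene under vehicle, and 3.23% and 6.54% under ribavirin. Of 17 other genes that HSF1 induces on heat shock, 6 pairs of class and gene were called higher and 12 lower of 109 with OVA under vehicle (5.50% and 11.01%, median -0.18), and 0 and 8 under ribavirin (0% and 7.34%, median -0.28), shares near those of all genes. Bag3, a co-chaperone that links HSP70 to autophagy, had the largest mean difference under vehicle (0.82 over 7 classes) and the ubiquitin gene Ubb the smallest (-1.68 over 8). Heat shock factors with their binding protein had 0 higher and 2 lower (9.09%) of 22 under vehicle. Other cytosolic co-chaperones had 1 higher and 3 lower of 124 (0.806% and 2.42%), and the chaperonin TRiC, which folds actin and tubulin, 0 and 0 of 56. Mitochondrial folding and proteolysis genes had 0 higher and 13 lower (18.1%) of 72 under vehicle and 0 and 10 (13.9%) under ribavirin, between Hspa9, the mitochondrial HSP70 (0.57), and Grpel1, its exchange factor (-1.22, the smallest under vehicle). Endoplasmic reticulum chaperones had 12 higher and 5 lower of 128 under vehicle (9.38% and 3.91%) and 3 and 4 under ribavirin (2.34% and 3.13%), with Hyou1 (1.12 and 0.86), an exchange factor of the endoplasmic reticulum HSP70, the largest in both.

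Immediate early genes are induced by tissue digestion as well as by stress in the animal. With OVA under vehicle 16 pairs were called higher and 8 lower of 128 (12.5% and 6.25%, against 7.8% and 8.83% of all pairs, median 0.06), and under ribavirin 0 and 13 (0% and 10.2%, against 3.23% and 6.54%, median -0.25). Their summed level was 8120, 13296, 8879 and 10559 CPM in T cell-like cells of the 4 libraries, and 38457, 44717, 39154 and 40968 in neutrophil-like cells. It was highest in Vehicle-OVA in both classes, as were Hspa1a and Hspa1b. In macrophage-like cells it was highest in Ribavirin (21559 CPM against 18173 in Vehicle), as was Hspa1a, whereas Hspa1b was highest in Vehicle-OVA. In the other classes the sum and Hspa1a were highest in different libraries, in part by small margins. The sum was highest in Vehicle in epithelial-like cells (21731 CPM) and in Ribavirin-OVA in B cell-like cells (9199 CPM). In cDC-like cells it was nearly level between Ribavirin (12249.9 CPM) and Ribavirin-OVA (12235.4 CPM). Hspa1a was highest in Vehicle-OVA in all 3 classes, in cDC-like cells with most UMIs of the pair in a single cell. In monocyte-like and pDC-like cells the sum was highest in Vehicle-OVA (21835 and 5273 CPM) and Hspa1a in Ribavirin-OVA. The pDC-like levels of Hspa1a were close, at 10.4 CPM in Vehicle-OVA and 10.7 in Ribavirin-OVA. Hspa1b was highest in Vehicle-OVA in pDC-like cells (11.4 CPM) and in Ribavirin-OVA in monocyte-like cells. The part of tissue handling in the chaperone levels was not tested.

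Across the 32 combinations of class and library, the level of Hspa1a (log2 CPM) was most like that of its copy Hspa1b (Pearson r = 0.85), and among 10615 genes searched Slc31a2, Slc6a6, Anxa3, Wdfy3 and App followed, with r from 0.81 down to 0.77. The other 8 members had r between -0.35 (Hspe1) and 0.21 (Hspa8) with Hspa1a. Hsp90ab1 had r of 0.96 with Hspd1 and 0.93 with Hspe1, and its most alike genes were Prpf19, Wdr61, Ptma, Cdk4 and Phb2 (0.97 to 0.98). These points share libraries and cell classes, and the correlations are a description without a test.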

How the data were processed

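Single-cell suspensions of CD45+ nasal cells were run on 10x Chromium chemistry. For each library the authors deposited UMI counts per gene and cell barcode, made with Cell Ranger 5.0.0 on mm10 per the submitters' processing notes, not normalized. The filter on cells required 200 genes, 500 UMIs and at most 10% mitochondrial UMIs, and 3.44% to 10.2% of the cells passing it per library were removed as doublets at the expected rate. The libraries were clustered together (scanpy 1.11.5, 2000 variable genes without chaperone and immediate early genes, 30 components, 15 neighbours, Leiden resolution 1) with no batch correction. Names of clusters came from marker genes, where a marker counted as detected only if it also exceeded its level in the other clusters. Clusters with under 3 detected markers stayed unnamed. So did those whose leading genes held more markers of another class, and those with few UMIs and no marker among the leading genes. UMIs were summed per class and library. Ratios of CPM have exact conditional binomial, levels exact Poisson and shares Clopper-Pearson 95% intervals. Log2 ratios used a pseudocount of 1 CPM, which understates differences of low genes, and were centred on the class median of genes with at least 50 UMIs. Named genes of a list are those with the largest and smallest mean centred ratio in an OVA pair. The procedure was tested on simulated counts. The members, lists and alternatives were chosen with earlier results of these data known. Gene models are GENCODE (GRCm38) and promoter windows RefSeq. Cct6a of the TRiC list was not found.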

Additional observations from a re-analysis of the deposited data

Results flagged for a closer look

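In macrophage-like cells the OVA log2 ratio of Hspa1a was 0.28 under vehicle and -1.22 under ribavirin, a difference of 1.501, and that of Hspa1b was 1.98 and -0.68, a difference of 2.65. In cluster 5 the direction was the opposite, with Hspa1a at -0.26 under vehicle and 2.01 under ribavirin (difference -2.27) and Hsph1 at -0.70 and 1.69 (difference -2.40). The Hspa1a level of cluster 5 in Ribavirin came from 68 UMIs in 10 of 171 cells. These differences stood out because the OVA ratio was above 1 in one treatment and below 1 in the other. For macrophage-like cells they compare different clusters. Within cluster 7 alone, the Hspa1b ratio was above 1 in both treatments, under ribavirin with an interval that included 1. The Hspa1a ratio there was above 1 under vehicle and below 1 under ribavirin, where its interval also included 1. With 1 library per group the differences were not tested.

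Cells left out of the comparisons held the same genes. Among cells over the mitochondrial limit, Vehicle-OVA had 6.67 times the Hspa1a level and 9.74 times the Hspa1b level of Vehicle, and Ribavirin-OVA had 3.74 times the Hspa1b level of Ribavirin. Among cells marked as doublets the ratios were 13.6 for Hspa1a and 22.8 for Hspa1b under vehicle, and 5.99 for Hspa1b under ribavirin. No library of these cells had a replicate.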

How the results depend on the processing

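The counts were recomputed under other settings, 5 of them chosen after seeing the data. With OVA under vehicle, the 13 higher calls became 8 when single cells were classed by marker UMIs (6 classes compared), and stayed within 1.5 times under the others. The 4 higher calls with OVA under ribavirin became 8 without centring, 9 at a threshold of 1.5-fold, 1 with at least 500 UMIs of a gene, 2 at a mitochondrial limit of 5% (5 classes compared), 8 with doublets kept and 2 with marker UMI classes. The 2 classes with members above the median under vehicle became 6 without centring, and 1 at the 5% limit, with marker UMI classes and without clusters coming to at least 80% from 1 library. The 0 classes under ribavirin became 5 without centring, 2 with doublets kept, 1 at resolution 0.5 and 1 with cluster 5 added to the neutrophil-like class (chosen after seeing the data). The 9 calls in either direction for ribavirin without OVA became 17 at 1.5-fold, 5 at the 5% limit and 2 with marker UMI classes. The 6 for ribavirin with OVA became 12 at 1.5-fold and 11 with doublets kept. Fewer classes or genes compared and the threshold itself enter these counts, and other causes were not tested. The 4 lower calls with OVA under vehicle became 0 with the mean of single-cell CPM, 15 at 1.5-fold and 2 at the 5% limit, with doublets kept, at resolution 0.5 and with chaperone genes allowed in the clustering. The 3 under ribavirin became 22 at 1.5-fold, 5 with thinned cells, 1 without centring and at resolution 0.5, and 0 with doublets kept. The 24 values called within classes in the OVA pairs were recomputed 472 times, of which 470 kept their direction and 420 stayed past 2-fold. Part of this agreement was fixed in advance, because some settings could not change a value. The 1.5-fold threshold and counting every member whatever its UMIs left each ratio as it was. Settings that changed the cells of a single class, such as adding cluster 5 to the neutrophil-like class, left the other classes as they were. The 470 and 420 are therefore not counts of separate checks. The exceptions in direction, with each cell thinned to 1000 UMIs, were Hspa1b in pDC-like cells, OVA under vehicle, at -3.35 and Hspa1b in pDC-like cells, OVA under ribavirin, at -0.23 on the centred log2 scale.

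No paired analysis was possible because each group has 1 library, and for the same reason no replicate was left out. Depth limits the B cell-like values most, where Hspa1a and Hspa1b had under 50 UMIs over the 4 libraries, followed by pDC-like and monocyte-like cells. Differences between mice, in tissue handling and between library preparations cannot be told apart from the groups. The rebuilt classes need not match the cell naming of the study.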

Other observations

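Plasma cell-like cells were not among the 8 classes compared, since Vehicle-OVA had 53 of them, and their chaperone genes had a pattern of their own. Unnamed cluster 22 was also nearest to plasma cells, with 7 markers detected, but was left out of the class for a leading gene of another class. It held 1, 211, 7 and 342 cells in the 4 libraries, more than the class itself in both OVA libraries. The values below therefore leave out many cells of this kind. Hspd1 was at 67.1, 345, 52.1 and 270.1 CPM in the 4 libraries (Vehicle first, then Vehicle-OVA, Ribavirin, Ribavirin-OVA), with OVA ratios of 5.14 (4.61 to 5.73) under vehicle and 5.18 (4.62 to 5.82) under ribavirin. Hsp90aa1 was at 238, 1007, 235 and 848 CPM, with ratios of 4.22 (3.97 to 4.49) and 3.61 (3.41 to 3.82). Hsph1 was at 15.1, 67.0, 13.4 and 53.1 CPM, and even Hspe1 and Hspa8, which were lower or little different with OVA elsewhere, had ratios above 1 in both pairs (2.39 and 1.98 for Hspe1, 2.45 and 2.20 for Hspa8). Both OVA libraries were above both libraries without OVA for each of these genes. The median log2 ratio over all genes in these cells was 0.59 and 0.55, and Hspa8 and Hspe1 were not called after centring. Cluster mix moved with this: cluster 28, led by cell cycle genes (Rrm2, Ccna2, Ccnb1), held 132, 49, 36 and 157 of these cells in the 4 libraries, and cluster 15 held 1087, 4, 521 and 1. Within cluster 28 the ratios were nearer 1, at 2.20 (1.92 to 2.51) and 1.77 (1.44 to 2.21) for Hspd1, 1.97 (1.83 to 2.13) and 1.55 (1.39 to 1.74) for Hsp90aa1, 1.60 (1.501 to 1.698) and 1.28 (1.18 to 1.39) for Hspa8, and 1.37 (1.24 to 1.51) and 0.973 (0.851 to 1.12) for Hspe1. Those of Hsph1 there were 2.50 (1.81 to 3.48) and 2.52 (1.45 to 4.80), the latter from 13 UMIs in Ribavirin.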
